A study of Mus musculus with 6 samples.

Results

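Cells that divide switch on a set of genes for mitosis, the separation of the copied chromosomes into daughter cells. The 40 genes described here were picked by symbol for their known roles, among the cyclins and kinases that drive mitosis, the spindle checkpoint, the kinetochore, the spindle and cytokinesis. Of the 40, 38 were named by a probe set on the arrays, out of 12393 genes named there, and all 38 had a mean signal of at least 100 and entered the comparison with 8627 tested genes in all. Ccnb1, which encodes cyclin B1, and Cdca8, which encodes borealin, were not named by a probe set and were not analysed here. The member nearest to the threshold of 100 was Nek2, with a mean signal of 249.9 over the arrays, and 0 measured members lay below the threshold.

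The samples were 6 brains of Swiss Albino mouse embryos at E11.5, each hybridized to its own array. The control group held 3 brains of embryos from normal mothers, and the diabetic group held 3 malformed brains of embryos whose mothers had been given streptozotocin, which destroys beta cells, and were diabetic. The effects of streptozotocin, of diabetes and of malformation cannot be told apart here, and the labels do not say whether brains shared a litter. Signals are given throughout in the order of replicates 1 to 3 of a group. Replicates 1 and 2 of each group were measured on the MOE430A chip and form the first table, and replicate 3 of each group was measured on the Mouse430A_2 chip with another scanner and forms the second, so every difference was taken within a table.

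In the brain at this age, progenitors line the ventricle, and their divisions supply both new progenitors and the first neurons. Entry into mitosis depends on cyclin-dependent kinase 1 bound to cyclins A and B. Mitotic exit depends on the anaphase-promoting complex, an enzyme that marks securin and the cyclins for destruction once the spindle checkpoint is satisfied. Most mitosis genes are transcribed late in the cell cycle, so their RNA marks cells in G2 and M phase. In bulk tissue, fewer dividing cells and less RNA per dividing cell cannot be told apart.

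The tissue label was checked with marker genes. All 17 neural progenitor markers found on the arrays, among them Sox2, Nes and Vim, had a mean signal of at least 100, as did all 25 neuron markers, among them Tubb3 and Dcx. Markers of other cells were also measured at that level: 17 of 18 for mesenchyme, 15 of 17 for endothelium, 12 of 13 for erythroid cells and 9 of 16 for macrophages. Several of these cell types divide at this age, and the arrays do not tell which cells the mitosis transcripts came from.

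As a group, the mitosis genes lay close to 0. The log2 change, diabetic minus control, was above 0 for 22 of 38 members (57.9%) and below 0 for 16, against 52.2% above 0 among all genes tested. The members' median was 0.039, where all genes tested had 0.012. The middle 50% of the members ran from -0.078 to 0.14, against -0.14 to 0.16 for all genes. A log2 change is here a difference of log2(signal + 32), which understates changes of genes with low signal.

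No member passed the test over all genes. With limma and Benjamini-Hochberg adjustment, 0 of 8627 genes (0%) had an adjusted p under 0.05, and the smallest adjusted p of any gene was 0.527. At an unadjusted p under 0.05 stood 3 of 38 members (7.89%), Kif22 and Cdc25b on the higher side and Cenpe on the lower, against a background of 659 genes (7.64%), 3.73% higher and 3.91% lower. The members' share is near the background. Without control replicate 1 and without diabetic replicate 2, each left out alone, Cenpe was the 1 member at that level.

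**Figure D1:**
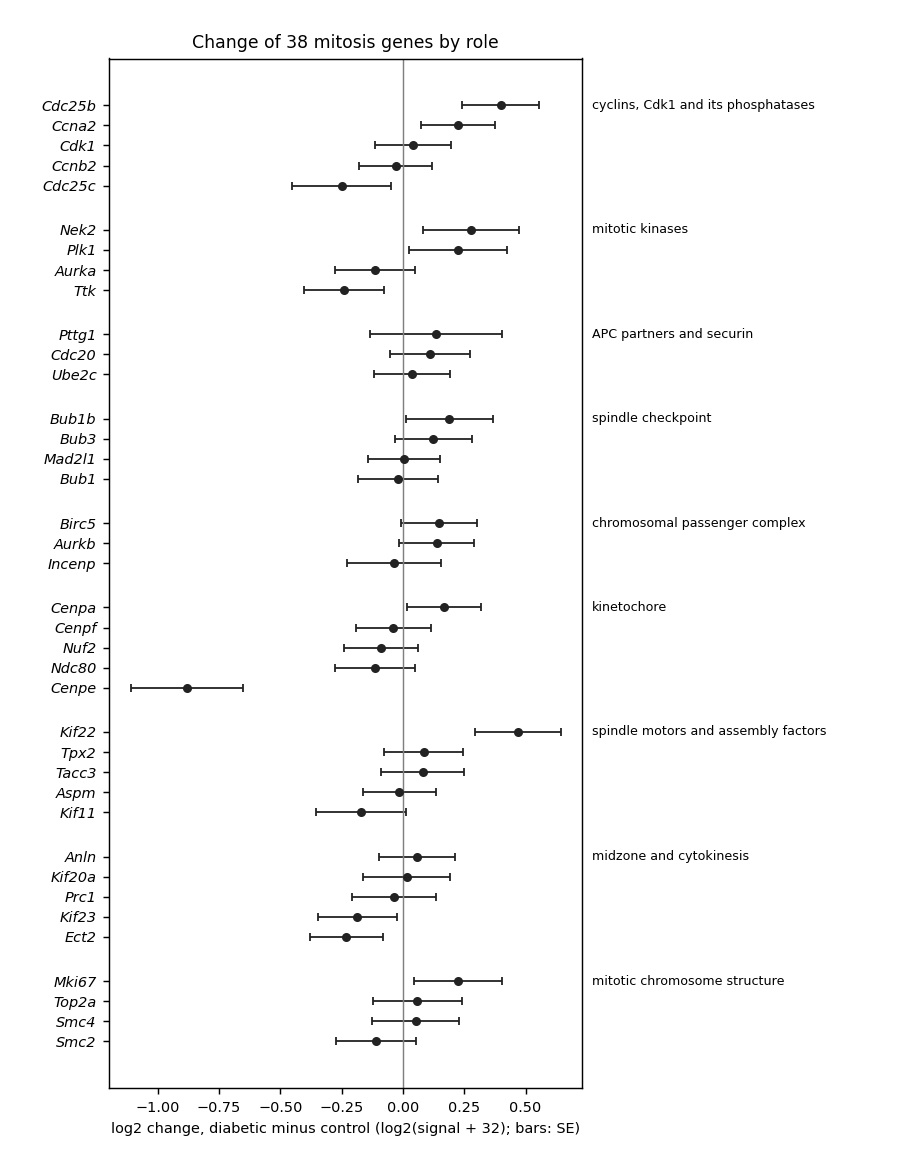
Log2 change, diabetic minus control, of each of the 38 measured mitosis genes (x axis, difference of log2(signal + 32)), grouped by role; points are estimates of the limma fit over 3 control and 3 diabetic arrays and bars are SE. Cenpe stands alone at -0.88, and Kif22 and Cdc25b have the highest values, 0.47 and 0.40. Within 0.25 of 0 lie 34 of 38 genes, as do 6306 of the 8627 genes tested.

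The intervals show how closely the arrays bounded each change. For 28 of 38 members (73.7%), the 95% confidence interval of the change lay inside a 1.5-fold change in either direction, and for 37 of 38 inside a 2-fold change, Cenpe being the exception. Among all genes tested, 57.9% of the intervals lay inside 1.5-fold and 95.2% inside 2-fold. These folds are of signal + 32. The genes tested reach down to a mean signal of 100, while the lowest member, Nek2, had 249.9. How far signal level accounts for the difference in shares was not tested.

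Counted array by array, 8 members had all diabetic arrays on 1 side of the control arrays of their table in both tables. On the higher side were Ccna2, Cdc25b, Cenpa and Kif22, and on the lower side Ttk, Cenpe, Kif23 and Ect2. These 8 of 38 are 21.1% of the members, against a background of 21.9% of all genes, 11.3% higher and 10.6% lower. The share is near the background. For each of the 8, an exact two-sided permutation of the group labels within tables gave p = 0.167, the smallest that its 12 arrangements allow. That value is fixed by the lack of overlap for which the 8 were picked, so it adds no evidence.

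**Figure D2:**
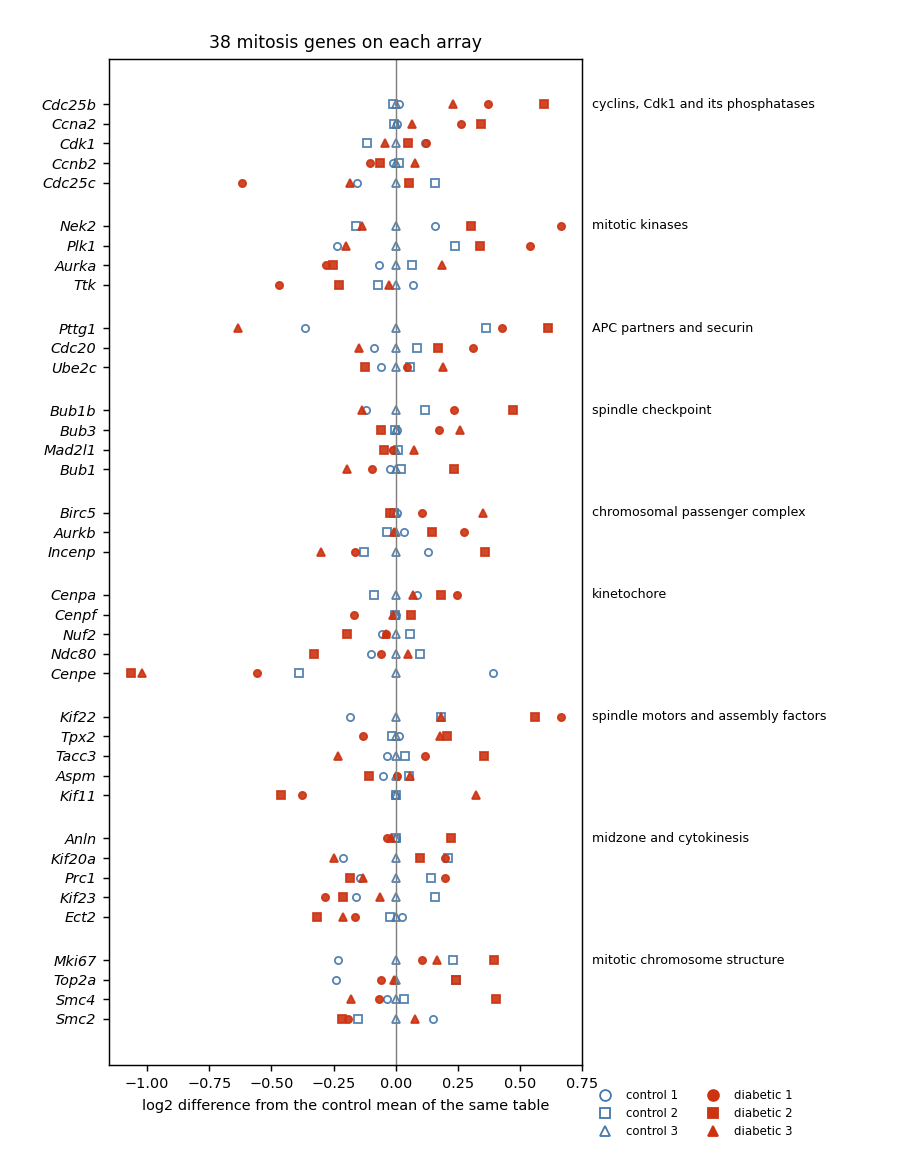
Each of the 38 mitosis genes on each array, as the log2 difference from the control mean of the same table (x axis); open blue symbols are control arrays, filled red symbols diabetic arrays, and circles, squares and triangles are replicates 1, 2 and 3. Control 3 is the only control of its table and lies at 0 by construction. For most genes red and blue symbols overlap, while all 3 red symbols of Cenpe lie left of its controls and those of Cdc25b lie to the right.

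What the members share in their promoters was read from RefSeq sequence of build GRCm38.p6, in windows from 250 bases before to 50 bases after each gene start. Mitosis genes are known for 2 short elements: the CCAAT box, bound by the factor NF-Y, and the cell cycle homology region, bound by the MuvB complexes that silence these genes outside late cell cycle. The letters searched, on both strands, were CCAAT for the first and TTTGAA or TTCGAA for the second. TTCGAA reads the same on both strands, and words that shared end letters were each counted. Of the 40 members, 33 were matched, with 36 windows. Of these windows, 29 (80.6%) held CCAAT, against 37.4% of all 32841 promoter windows, and 20 (55.6%) held it more than once, against 11.7%. TTTGAA or TTCGAA stood in 28 of 36 (77.8%), against 19.2% of all windows and 13.6% of those of genes tested on the arrays. Both kinds stood together in 26 of 36 (72.2%), against 7.52% of all windows. The letters are not particular to the members. Of 133 windows of other mitosis genes, 57.1% held CCAAT, 42.1% held TTTGAA or TTCGAA, and 25.6% held both kinds. The windows of Bub3, Prc1 and Ect2, a pair each, overlap and are not independent.

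The 150 bases before the gene start are shown for the members at the ends of the distribution, Kif22, Cdc25b and Cenpe, for Ect2, which was lower on every diabetic array, and for Cdk1 and Kif11 as members near 0 or of mixed sign. Sequences run 5′ to 3′ on the strand of the gene, and capitals mark these 3 words in either orientation (ATTGG is CCAAT on the opposite strand, and TTCAAA is TTTGAA there).
Kif22, chr7:127042421-127042570, minus strand: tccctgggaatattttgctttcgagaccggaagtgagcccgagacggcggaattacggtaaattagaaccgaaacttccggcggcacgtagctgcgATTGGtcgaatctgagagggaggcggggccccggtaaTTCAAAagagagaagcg
Cdc25b, chr2:131186798-131186947, plus strand: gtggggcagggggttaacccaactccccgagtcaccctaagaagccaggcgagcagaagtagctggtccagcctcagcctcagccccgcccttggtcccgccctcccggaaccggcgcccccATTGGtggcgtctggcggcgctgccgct
Cenpe, chr3:135212413-135212562, plus strand: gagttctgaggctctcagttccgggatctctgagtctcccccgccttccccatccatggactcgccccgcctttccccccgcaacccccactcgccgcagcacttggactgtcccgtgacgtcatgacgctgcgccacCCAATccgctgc
Ect2, chr3:27153879-27154028, minus strand: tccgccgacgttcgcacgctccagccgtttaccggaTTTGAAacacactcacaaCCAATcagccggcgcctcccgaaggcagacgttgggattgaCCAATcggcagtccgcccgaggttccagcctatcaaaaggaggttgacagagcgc
Cdk1, chr10:69352913-69353062, minus strand: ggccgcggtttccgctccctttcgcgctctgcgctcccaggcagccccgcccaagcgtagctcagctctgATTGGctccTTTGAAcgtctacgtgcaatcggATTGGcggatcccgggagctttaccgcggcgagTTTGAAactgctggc
Kif11, chr19:37376232-37376381, plus strand: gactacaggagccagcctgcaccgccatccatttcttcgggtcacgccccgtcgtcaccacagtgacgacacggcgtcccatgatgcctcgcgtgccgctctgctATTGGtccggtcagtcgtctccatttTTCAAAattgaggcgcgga

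In Cdk1, TTTGAA begins 15 bases before the start and CCAAT letters begin 80 and 48 bases before it. A second TTTGAA begins 71 bases before it, between the CCAAT letters. In the stretches shown, Kif22 and Kif11 each hold CCAAT letters once, 54 and 45 bases before the start. There they also hold the TTTGAA letters once, on the opposite strand, 17 and 19 bases before the start. Farther out, the searched window of Kif22 holds both kinds of letters again, and that of Cdk1 holds CCAAT letters again. Over all matched members, 24 of the 25 with TTTGAA or TTCGAA had such letters within 50 bases of the start. Cdc25b holds TTCGAA after its start, outside the stretch shown. Cenpe holds 1 CCAAT, 12 bases before its start, and neither TTTGAA nor TTCGAA in its window, which says only that these letters are not there. Of the measured members, the 24 with TTTGAA or TTCGAA had a median log2 change of 0.011, 12 higher and 12 lower, and the 7 matched members without them a median of 0.080, 5 higher and 2 lower. The lowest member, Cenpe, stood in the second set and the highest, Kif22, in the first.

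The cyclins, Cdk1 and the Cdc25 phosphatases set the switch into mitosis. Of 5 measured, 3 lay above 0 and 2 below, with a median of 0.041. Cdc25b, a phosphatase that activates Cdk1 at mitotic entry, had signals of 724, 711 and 404 in controls and 936, 1099.7 and 479 in the diabetic group. Each diabetic array lay above the controls of its table. The log2 change was 0.40 ± 0.16 (SE, 3 arrays a group), made up of 0.48 for the first table and 0.23 for the second, and limma gave an unadjusted p of 0.0305 and an adjusted p of 0.647.

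Ccna2, which encodes cyclin A2 of S phase and early mitosis, had 2814, 2790 and 2612 in controls and 3371, 3567 and 2733 in the diabetic group. Its groups did not overlap within tables, and the log2 change was 0.22 ± 0.15 (SE, 3 arrays a group), most of it from the first table (0.30, against 0.065 in the second). Its other probe set, with a mean signal of 1882, had -0.049. Cdc25c, the phosphatase that completes the activation of Cdk1, had 305, 386 and 285 in controls and 213, 358 and 247 in the diabetic group. Its groups overlapped in the first table, with diabetic replicate 1 the lowest array, and the log2 change was -0.25 ± 0.20. Cdk1 itself and Ccnb2, cyclin B2, had 0.041 and -0.030.

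Among the mitotic kinases, 2 of 4 lay above 0 and 2 below, with a median of 0.055. Nek2, a centrosome kinase, had signals of 264, 206 and 183 in controls and 388, 295 and 163 in the diabetic group. The diabetic arrays were higher in the first table and lower in the second, and the log2 change was 0.28 ± 0.20 (SE, 3 arrays a group). Ttk, the Mps1 kinase that starts checkpoint signalling at kinetochores, had 599, 540.3 and 689.7 in controls and 402, 482 and 676 in the diabetic group. All diabetic arrays lay below the controls of their table, with a log2 change of -0.24 ± 0.16, which was -0.35 in the first and -0.027 in the second table. Plk1, which drives centrosome maturation and mitotic entry, had 0.23, and Aurka, the spindle pole kinase, -0.12. For both, the sign differed between the tables: 0.44 and -0.20 for Plk1, -0.27 and 0.19 for Aurka.

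The anaphase-promoting complex is represented by its activator Cdc20, its ubiquitin-conjugating enzyme Ube2c and its target securin, encoded by Pttg1. All 3 lay above 0, with a median of 0.11, and all 3 differed in sign between the tables. Pttg1 had signals of 3157, 5251 and 6186 in controls and 5489, 6242 and 3978 in the diabetic group. The spread among controls exceeded the difference between groups: the log2 change was 0.14 ± 0.27 (SE, 3 arrays a group), 0.52 in the first and -0.63 in the second table. It was -0.18 without control replicate 1 and -0.027 without diabetic replicate 2. Cdc20 had 3003, 3392 and 5485 in controls and 3972, 3592 and 4945 in the diabetic group, a log2 change of 0.11 ± 0.16. Diabetic arrays were higher in the first table and lower in the second. Ube2c had 0.037.

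The spindle checkpoint holds anaphase back until every chromosome is attached. Its 4 genes had a median of 0.065, 3 above 0 and 1 below. Bub1b, which encodes the checkpoint protein BubR1, had signals of 1328, 1570.2 and 1309 in controls and 1703, 2016 and 1187 in the diabetic group. The diabetic arrays were the higher ones in the first table and the lower one in the second, with a log2 change of 0.19 ± 0.18 (SE, 3 arrays a group). Bub3, the partner of Bub1 and BubR1, had 2495, 2482 and 3368 in controls and 2809, 2386 and 4039.6 in the diabetic group, a log2 change of 0.12 ± 0.16 with overlap in the first table. Its second probe set, with a mean signal of 550.4, had -0.11. Mad2l1, which encodes the Cdc20 inhibitor Mad2, and Bub1, the checkpoint kinase, had 0.0050 and -0.019, and the 95% confidence interval of Mad2l1 ran from -0.32 to 0.33.

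The chromosomal passenger complex corrects faulty attachments and later guides cytokinesis. Birc5, which encodes its subunit survivin, had signals of 2637, 2614 and 2066 in controls and 2829, 2584 and 2645 in the diabetic group. The groups overlapped in the first table, and the log2 change of 0.15 ± 0.16 (SE, 3 arrays a group) came mainly from the second (0.35, against 0.042). Aurkb, the kinase of the complex, had 954, 908 and 1097 in controls and 1134, 1032 and 1090.0 in the diabetic group, a log2 change of 0.14 ± 0.15. Here the diabetic arrays were higher in the first table and close to the control in the second (-0.0088). Incenp, the scaffold, had -0.036.

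Kinetochore genes held the member farthest from 0. Cenpe, a motor of the kinesin family that carries chromosomes to the spindle equator, had signals of 366, 200.1 and 607 in controls and 175, 113 and 283 in the diabetic group. Each diabetic array lay below the controls of its table, and the controls ranged over a wide span. The log2 change was -0.88 ± 0.23 (SE, 3 arrays a group), 0.543 of the control level on the signal + 32 scale, with -0.81 in the first and -1.02 in the second table. Limma gave an unadjusted p of 0.0036 and an adjusted p of 0.527. Leaving out any 1 array gave changes between -1.12 and -0.68. Cenpe was read by 1 probe set.

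The other kinetochore genes lay closer to 0. Cenpa, the histone variant that marks centromeres, had 2407, 2134 and 2085 in controls and 2692, 2579 and 2189.9 in the diabetic group, a log2 change of 0.17 ± 0.15 (SE, 3 arrays a group). Its diabetic arrays lay above the controls of their table, with 0.21 in the first and 0.069 in the second. Cenpf, a large protein of the outer kinetochore, and Ndc80 and Nuf2, subunits of the complex that grips microtubules, had -0.039, -0.11 and -0.091. A second probe set of Cenpf, with a mean signal of 291, had 0.35. Over the role, 1 of 5 genes lay above 0 and 4 below, with a median of -0.091.

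Of 5 genes for spindle motors and assembly factors, 3 lay above 0 and 2 below, with a median of 0.080. Kif22, a kinesin that binds chromosome arms, had signals of 1949, 2525 and 3702 in controls and 3535, 3285 and 4204 in the diabetic group. Each diabetic array lay above the controls of its table. The log2 change was 0.47 ± 0.18 (SE, 3 arrays a group), 0.61 in the first and 0.18 in the second table, with an unadjusted p of 0.0243 and an adjusted p of 0.647 in limma. The 2 other probe sets of Kif22, with mean signals of 959.7 and 495, had -0.077 and 0.0098, so the value rests on 1 of 3 probe sets.

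Kif11, the motor that pushes spindle poles apart, had 820.5, 823 and 713 in controls and 626, 588 and 900.5 in the diabetic group. The diabetic arrays were lower in the first table (-0.42) and higher in the second (0.32), giving a log2 change of -0.17 ± 0.19 (SE, 3 arrays a group). Its other probe sets had 0.093 and -0.00047. Tpx2, an activator of Aurora A, had 0.084, against -0.37 for a second probe set with a mean signal of 610.3, and Tacc3, a spindle protein, had 0.080. Aspm, a spindle pole protein needed for normal brain size, had -0.016 with signals of 754 to 992 in controls and 725 to 1033 in the diabetic group.

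**Figure D3:**
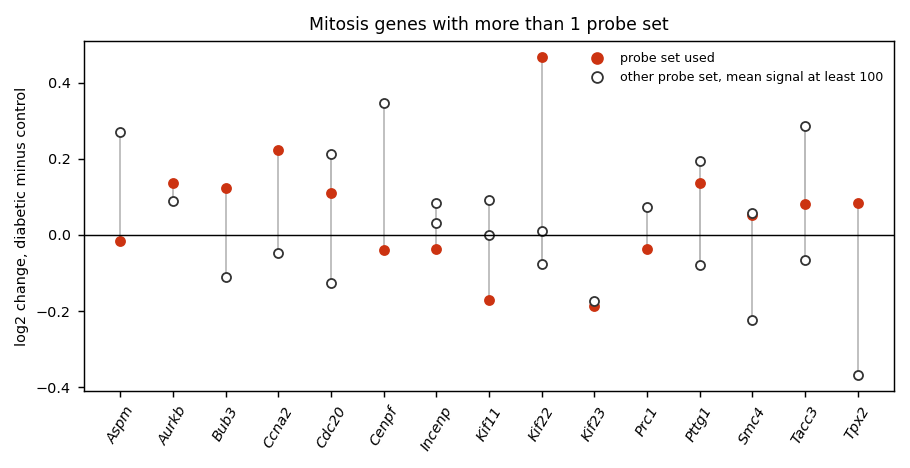
Log2 change, diabetic minus control (y axis), of each probe set with a mean signal of at least 100, for the 15 mitosis genes with more than 1 such probe set (x axis). Filled red points are the probe sets used and open points the others; in 13 of 15 genes the probe sets differ in sign, and Kif22 has the widest gap between the one used (0.47) and the others (-0.077 and 0.0098).

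Genes of the spindle midzone and cytokinesis had a median of -0.037, with 2 of 5 above 0 and 3 below. Ect2, the exchange factor that activates RhoA for the contractile ring, had signals of 1292, 1249.7 and 1725 in controls and 1129, 1014 and 1483 in the diabetic group. Each diabetic array lay below the controls of its table, by like amounts in both (-0.24 and -0.21), and the log2 change was -0.23 ± 0.15 (SE, 3 arrays a group) with a limma adjusted p of 0.711. Leaving out single arrays kept it between -0.27 and -0.19. Kif23, a midzone kinesin that partners with the RhoA pathway, had 769, 967 and 770.3 in controls and 703, 740.3 and 736 in the diabetic group, a log2 change of -0.19 ± 0.16. Its diabetic arrays also lay below the controls, with -0.25 in the first and -0.063 in the second table. Prc1, a microtubule bundler, Kif20a, a midzone kinesin, and Anln, an actin-binding protein of the ring, had -0.037, 0.016 and 0.056.

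The genes of mitotic chromosome structure include a widely used marker of dividing cells. Mki67, which encodes the Ki-67 antigen, had signals of 1839, 2549 and 2831 in controls and 2333, 2859.9 and 3184 in the diabetic group. Diabetic replicate 1 lay between the controls of its table, and the other diabetic arrays lay above theirs. The log2 change was 0.22 ± 0.18 (SE, 3 arrays a group), with a 95% confidence interval from -0.18 to 0.62. Smc2, a condensin subunit, had 2391, 1934 and 2397 in controls and 1878, 1847 and 2532 in the diabetic group, a log2 change of -0.11 ± 0.16, which was 0.0027 without control replicate 1. Top2a, the topoisomerase that untangles sister chromosomes, and Smc4, the partner of Smc2, had 0.057 and 0.052.

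For most members the sign of the change differed between the tables. Of 38 members, 15 (39.5%) had log2 changes of the same sign in both tables, against 51.5% of all genes tested. Over the first table the members had a median of 0.063, and over the second one of -0.015. The first table holds 4 arrays and the second 2, so single values in the second have no replicate.

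**Figure D4:**
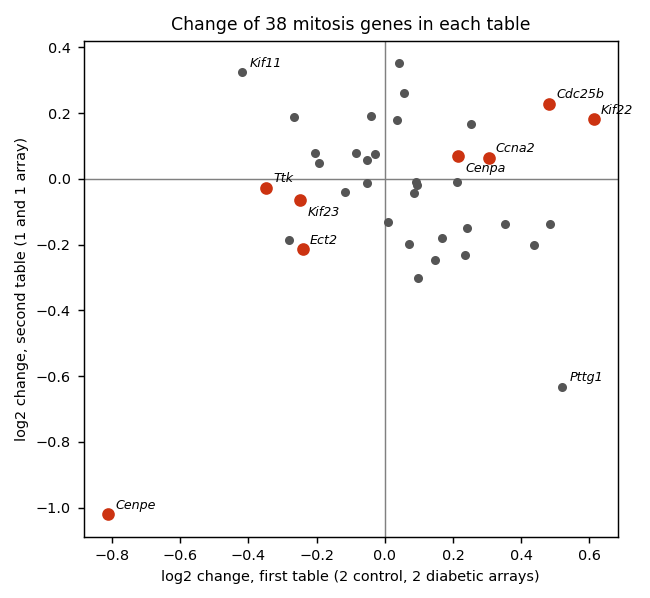
Log2 change of each of the 38 mitosis genes in the first table (x axis, 2 control and 2 diabetic arrays) and in the second (y axis, 1 and 1 array). Red points are the 8 genes whose diabetic arrays lie on 1 side of the controls in both tables; Cenpe is low in both, and Pttg1 is 0.52 in the first and -0.63 in the second.

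The arrays differed in how many members they placed above the control mean of their table. On diabetic replicate 1 there were 19 of 38 above it, with a median of -0.0038, on diabetic replicate 2 there were 22 with a median of 0.079, and on diabetic replicate 3 there were 16 with a median of -0.015. The summed signal of the members was 63378, 68922 and 76323 in controls and 70815, 73662 and 74506 in the diabetic group. In the first table both diabetic sums lay above both control sums, and in the second the diabetic sum was the lower. The residual SD of these medians, after table and group were taken out, was 0.040 (n = 6 arrays). Control replicate 3 lies at 0 by construction, and control replicates 1 and 2 mirror each other (-0.017 and 0.017). The 6 medians are therefore not all free to vary, which limits this SD as a measure of spread.

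Neuron markers were low on both diabetic arrays of the first table. Over all arrays 22 of 25 had a log2 change below 0 and 12% lay above it, against 52.2% above 0 among all genes tested. Their median was -0.27. In limma 6 (24%) stood at an unadjusted p under 0.05, all on the lower side, against a background of 7.64%, 3.91% lower. On diabetic replicate 1 there were 8 of 25 above the control mean, with a median of -0.29, and on diabetic replicate 3 there were 14, with a median of 0.032. On diabetic replicate 2 0 of 25 lay above it, with a median of -0.78, while the mitosis genes had 22 of 38 above it. Summed neuron marker signals were 24422, 23195 and 27178 in controls and 19095, 13349.8 and 30243 in the diabetic group. Those of progenitor markers were 30899.5 to 35867 in controls and 34799 to 35927 in the diabetic group. Mesenchyme marker sums were 18192, 18885 and 21939 in controls and 16356.5, 15592 and 18274 in the diabetic group, where each array lay below the controls of its table. Of 17 mesenchyme markers tested, 15 had a log2 change below 0, with a median of -0.21. Above 0 lay 11.8% of them, against 52.2% of all genes. The ranges in controls and in the diabetic group, over both tables, were 4104 to 5956 and 4507 to 5468 for endothelium. They were 45978 to 55100 and 52337 to 60224 for erythroid cells, and 1536 to 2749 and 1685 to 2364 for macrophages. Such sums follow the genes of highest signal. Within tables, the medians on diabetic replicates 1 to 3 were -0.037, -0.10 and 0.12 for progenitor markers and -0.077, -0.18 and 0.31 for endothelium. They were -0.034, -0.22 and 0.34 for erythroid cells and 0.13, -0.52 and 0.11 for macrophages. None of these markers had a signal of 0 on any array, and their part in the mitosis values was not tested. The probe set for the 3′ end of 18S ribosomal RNA read 7894 on control replicate 1 and 101 to 265 elsewhere. Without diabetic replicate 2 the members' median was -0.0067, and without control replicate 1 it was 0.0012.

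**Figure D5:**
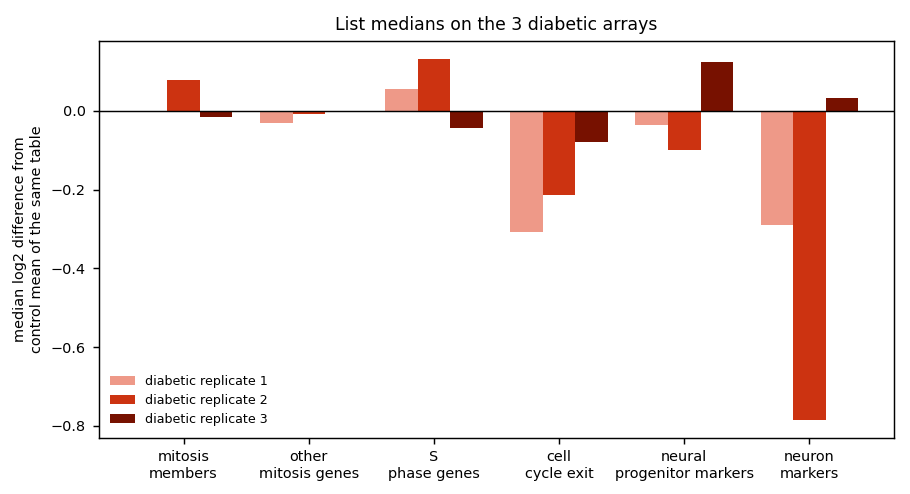
Median log2 difference from the control mean of the same table (y axis) over the tested genes of 6 lists (x axis), on diabetic replicates 1, 2 and 3 (bars from light to dark). The mitosis bars lie between -0.015 and 0.079, while the neuron markers reach -0.78 on diabetic replicate 2.

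Other genes of the mitotic machinery gave a like picture. Of 98 tested, 49 lay above 0 and 49 below, with a median of 0.00025, and at an unadjusted p under 0.05 stood 3 higher and 4 lower (7.14%, against the background of 7.64%). In limma 0 of them passed the adjustment, with a smallest adjusted p of 0.527. Cenpb and Cenpc1, both centromere proteins, lay on opposite sides. Cenpb had signals of 289, 337 and 332 in controls and 505, 537 and 464 in the diabetic group, a log2 change of 0.60 ± 0.16 (SE, 3 arrays a group), which was 0.22 with all its probe sets averaged. Cenpc1 had 917, 717 and 688 in controls and 505, 406 and 521 in the diabetic group, a log2 change of -0.66 ± 0.18. Neither gene had overlapping groups within a table. Fzr1, the activator of the anaphase-promoting complex in late mitosis and G1, had 0.39 ± 0.15, and Stil, a centriole protein, 0.44 ± 0.19. On the lower side Cdc27, a core subunit of that complex, had -0.54 ± 0.21, with -0.034 in the second table, and Depdc1a -0.45 ± 0.17.

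Genes of the phases around mitosis were set beside them. Of 50 S phase genes tested, 29 lay above 0 and 21 below, with a median of 0.023, and at an unadjusted p under 0.05 stood 5 higher and 2 lower (14%, against the background of 7.64%). Pola2, a subunit of DNA polymerase alpha, had a log2 change of 0.66 ± 0.22 (SE, 3 arrays a group), Uhrf1, which maintains DNA methylation at replication, 0.51 ± 0.16, and Pold2, a subunit of DNA polymerase delta, 0.43 ± 0.15. Ung, a DNA repair glycosylase, had -0.48 ± 0.15, and Fen1, the flap endonuclease, -0.45 ± 0.17, which was -0.25 with all its probe sets averaged. Of 17 genes of cell cycle exit, 6 lay above 0 and 11 below, with a median of -0.22. All diabetic arrays lay below the controls of their table for 6 of the 17 (35.3%), against a background of 10.6% of all genes. Split by table, the median of the 17 was -0.29 (first) and -0.080 (second, which has no replicates within a group). For the 6, changes within that second table ran from -0.15 (Cdkn1c) to only -0.0072 (Rbl1). At an unadjusted p under 0.05 stood only 1 of the 17 (5.88%), against the background of 7.64%. In limma 0 genes of either list passed the adjustment, and differences between these lists and the mitosis genes were not tested.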

How the data were processed

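Signals were compared in 6 arrays, 3 control and 3 diabetic. Values deposited by the authors are intensity readings per probe set on a linear scale, already brought to a trimmed mean of 500 after removal of 2% at each end, as the values show. The submitters' processing notes name GCOS, whose algorithm is not given in the sources used here. Run settings deposited with each array, text of other kind than expression, gave chip and scanner per the file headers. Arrays were rescaled to exactly 500 (by at most 0.0363%), and printed signals are these rescaled values. Log2(signal + 32) was taken, and for each gene the probe set with the highest mean on that scale was used. Genes averaging 100 or more in signal, 8627 of them, were tested with limma 3.58.1 in R 4.3.3 (two-sided, Benjamini-Hochberg, threshold 0.05), with the table as a block and 3 residual degrees of freedom plus 6.48 from the prior. Precision is limited by the number of arrays. The p-values rest on the spread between these brains, on how far the group difference varied between tables, and on variance borrowed from other genes. They do not allow for shared litters, which are unknown.

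The members were defined by symbol and not by a threshold on values, but they and the lists were chosen with earlier results of these data known. Given on every array were the 2 members of each role with the largest absolute change and all without overlap. Of the other mitosis and S phase genes, at most 3 on each side with the smallest limma p under 0.05 were named. Among these, signals on every array are printed only for Cenpb and Cenpc1. Symbols came from probe sets naming 1 gene. Same-numbered control and diabetic arrays correlated at 0.43 to 0.74 in their deviations from group means, and at -0.0091 for replicate 1 once the first table was taken alone, so the numbers pair arrays through the table, which the fit already holds as a block. Alternatives changed the pseudocount, filter, probe set rule, normalization, block, array weights, table and single arrays.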

Additional observations from a re-analysis of the deposited data

How the results depend on the processing

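The members' median log2 change, 0.039 as reported, was 0.039 and 0.040 with pseudocounts of 64 and 16, 0.034 with all probe sets averaged, -0.015 in the second table alone, 0.020 with quantile normalization within each table, 0.054 with centred arrays, 0.0029 with array weights, and -0.0067 to 0.063 as single arrays were left out, below 0 without diabetic replicate 2. Leaving out that array and taking the second table alone moved it by more than the residual SD of the array medians (0.040). The number of members above 0 was 19 to 24 as single arrays were left out, 16 in the second table alone and 26 with all probe sets averaged. In limma 0 genes passed the adjustment in every alternative with a test. The count of members at an unadjusted p under 0.05 was 0 without the table block, where 100 of 8627 genes reached that level. It was 5 of 38 with array weights, against 10.2% of all genes. As single arrays were left out it was 1 to 4, against 4.80% to 9.73% of all genes. With the replicate block it was 3, with 0 genes past the adjustment, and the block changed no other call. The number of members without overlap was 20 in the first table alone, 38 in the second, where 1 array faces 1, and 9 to 20 as single arrays were left out, since fewer arrays overlap less often. Averaging all probe sets turned Kif23 to 0.031. That average includes a Kif23 probe set with a mean signal of 47.7, below the threshold of 100, which had 0.45. Its other probe set, with a mean signal of 174, had -0.17, near the -0.19 of the one used. Averaging left Cdc25b and Cenpe, and not Kif22, at an unadjusted limma p under 0.05, a level that Cenpb and Fen1 also missed there. As single arrays were left out, Pttg1 ran from -0.18 to 0.52 and Smc2 from -0.20 to 0.0027; the cause was not tested. Signal over background was not measured, and the 3 arrays in each group limit what could be seen.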
